A study of Drosophila melanogaster with 3 samples.

Results

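The 54 genes described here encode cytosolic translation factors of Drosophila melanogaster. They were taken from the Ensembl BDGP6.54 annotation as all genes whose symbol starts with eIF, eEF or eRF, and make up 54 of its 18164 genes, transposable elements left out, and 54 of its 13945 protein-coding genes. Of the 54 genes, 44 were classed as initiation factors, 8 as elongation factors and 2 as release factors. Chromatin occupancy of the protein encoded by CG33213 was mapped by ChIP-seq in whole embryos collected from 0 to 24 h, males and females pooled. The flies stably expressed CG33213 from a transgene as a fusion to eGFP at its C terminus, and per the description in the labels chromatin was precipitated with an antibody against GFP. Where the labels list the antibody, however, they give CG33213, so whether the tagged protein alone was precipitated cannot be settled from the labels. The labels used here give no untagged line or other condition, and do not state which promoter drives the transgene. There were 3 biological replicates of this single group. Each had a relaxed list of 30000 peaks, and all 3 together had an optimal list of 4417 peaks, made with a test of reproducibility between replicates. No read depth accompanies the lists, so the number of reads behind a peak is unknown.

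Translation factors load, move and release the ribosome. Initiation factors bring the initiator tRNA and the capped mRNA to the small ribosomal subunit and select the start codon, elongation factors deliver aminoacyl-tRNAs and move the ribosome along the mRNA, and release factors end synthesis at stop codons. Most of these genes are housekeeping genes, used in nearly all cells, while several of the fly paralogs are used mainly in the male germ line. Housekeeping promoters of flies often carry the DNA replication-related element (DRE), the palindrome TATCGATA bound by the factor Dref, or Motif 1, whose core is GGTCACAC.

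A gene was called bound when the summit of an optimal peak lay within 500 bp of any of its annotated transcription start sites (TSSs). By this measure 26 of the 54 translation factor genes (48.1%) were bound, beside 25.0% of all protein-coding genes and 20.7% of all genes. Initiation factors were bound in 21 of 44 cases (47.7%), elongation factors in 4 of 8 (50%) and release factors in 1 of 2. The shares of the 3 classes lay close together, and with 8 and 2 genes in the smaller classes a difference between them could not be resolved. The same count in the 4417 strongest peaks of each replicate gave 22, 24 and 25 bound genes in replicates 1, 2 and 3, or 43.8% ± 2.83 (SD, n = 3), against 24.6% ± 0.588 of protein-coding genes. In every replicate the share of translation factor genes was above that of protein-coding genes. The 26 bound genes had 26 different nearest peaks, and none of the 26 was absent from the strongest peaks of all replicates. Their peaks were found within 150 bp among the strongest peaks of all 3 replicates in 15 cases, of 2 replicates in 7 and of 1 replicate in 4. The 15 make up 57.7% of the bound genes, and the like share of all bound protein-coding genes was 63.9%. Counting bound genes replicate by replicate, 15 translation factor genes were bound in every replicate, where 17.4% of protein-coding genes were. When optimal peaks matched in all 3 replicates alone were counted, 15 of the 54 genes stayed bound (27.8%, beside 16.9% of protein-coding genes). Without replicates 1, 2 and 3 the counts were 17, 18 and 17 (31.5%, 33.3% and 31.5%), beside 18.7%, 18.9% and 19% of protein-coding genes.

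**Figure D1:**
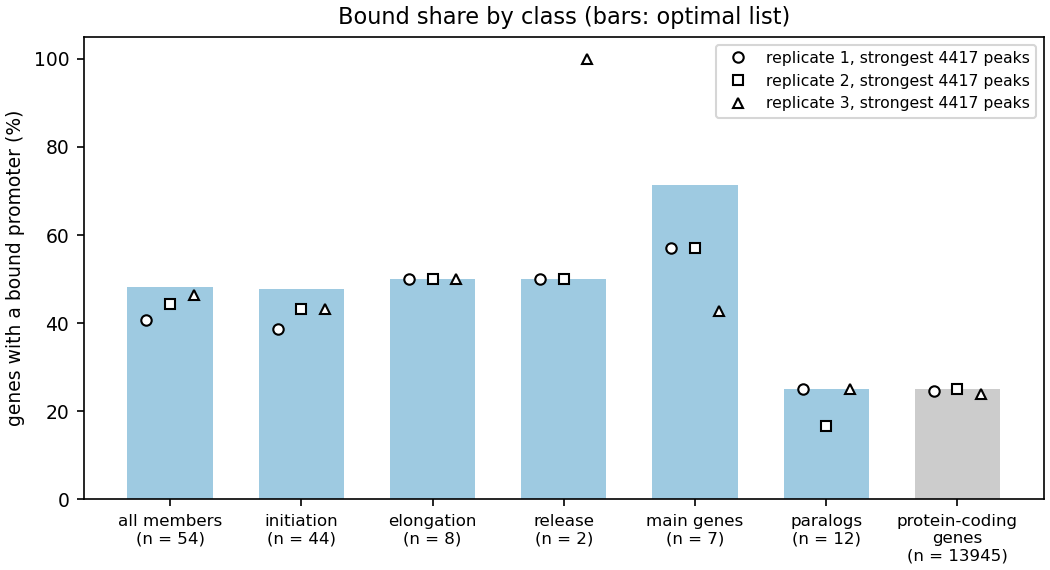
Share of genes with a bound promoter in percent, for all translation factor genes, for each class, for main genes and paralogs of 7 families, and for all protein-coding genes. Bars give the optimal list and open symbols the 4417 strongest peaks of each replicate; the bar of all members stands at 48.1% and that of protein-coding genes at 25.0%.

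The peaks of the bound genes held the DRE more often than promoter peaks at large. The DRE, TATCGATA, lay within 50 bp of the summit at 9 of the 26 peaks (34.6%), beside 197 of the 2551 peaks nearest to bound protein-coding genes (7.72%, these 26 included). The genes were eEF1gamma, eIF1, eIF2A, eIF2gamma, eIF3a, eIF3f1, eIF4A, eIF4E6 and eRF1. At 5 of these 9 peaks the gene's own TSS was nearest to the summit. At those of eIF1, eIF2gamma, eIF3a and eIF4E6 the TSS of another gene was nearer. The word there cannot be given to the translation factor gene alone. The nearest DRE lay 1 to 39 bp from the summit, with a median of 23 bp. In eIF4A, the RNA helicase that unwinds mRNA before scanning, the distance was 1 bp, in eIF3a 5 bp and in eRF1 9 bp. In the strongest peaks of the replicates the word was found at 7 of 22, 7 of 24 and 6 of 25 peaks of translation factor genes, or 28.3% ± 3.98 (SD, n = 3), against 6.62% ± 0.506 of promoter peaks. The lowest replicate stood at 24% and the highest value for promoter peaks at 7.19%. The shorter word CGATA, which TATCGATA contains on both strands, lay at 15 of the 26 peaks (57.7%, beside 33.9%). These shares include the 9 and the 197 peaks with a DRE, so they are not separate from the DRE counts. The Motif 1 core was found at 3 peaks (11.5%, beside 7.06%), those of eEF1alpha1, eIF2A and eIF2Bepsilon. GGTATTTT (the core of Motif 6) and the E-box CAGCTG were found at none of the 26 peaks, beside 4.16% and 8.19% of promoter peaks. CAGCNCTA (the core of Motif 7), TATAAA and GAGAG lay at 1, 3 and 2 peaks, or 3.85%, 11.5% and 7.69%, beside 2.70%, 11.9% and 9.92%. All words were searched on both strands, and a match describes the sequence and is not a measured binding site of another factor.

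**Figure D2:**
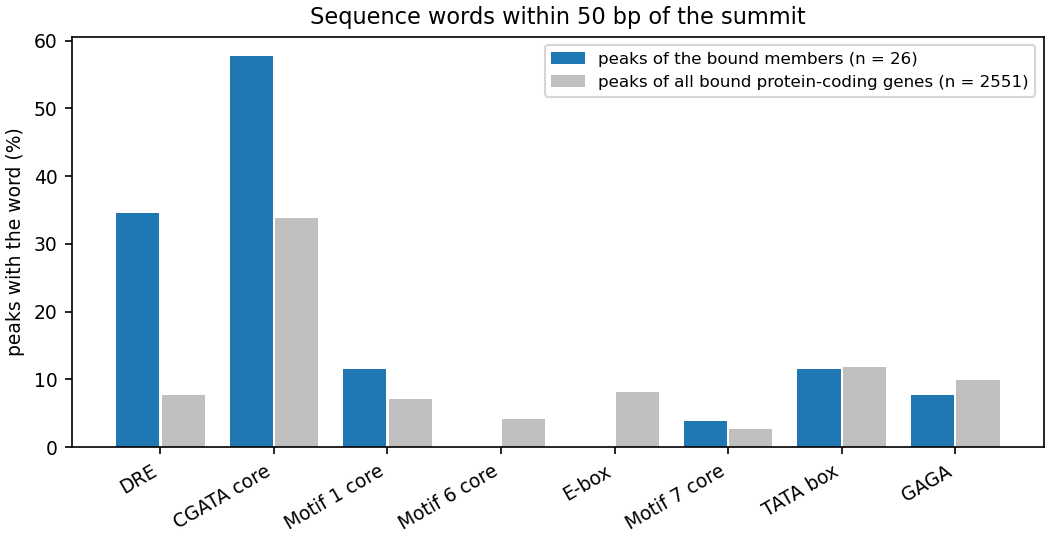
Share of peaks in percent that hold each of 8 sequence words within 50 bp of the summit, on either strand, at the 26 peaks of bound translation factor genes (blue) and at the 2551 peaks of all bound protein-coding genes (grey). The DRE stands at 34.6% in blue and at 7.72% in grey, and Motif 6 and the E-box have no blue bar.

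The 100 bp just upstream of the TSS show the same words in their setting. Sequence is from the RefSeq copy of the dm6 assembly and runs 5′ to 3′ on the strand of the gene up to the base before the TSS, cut short where an annotated exon begins. Capitals mark any of the 8 words on either strand, so that TATCG is CGATA read on the other strand. Bound genes of each class are shown first, with a DRE in the first 4 and none in eIF4E1, the main cap-binding protein, or in eIF4EHP, a cap-binding repressor of translation.
eEF1gamma, chr3R:29220072-29220171, plus strand: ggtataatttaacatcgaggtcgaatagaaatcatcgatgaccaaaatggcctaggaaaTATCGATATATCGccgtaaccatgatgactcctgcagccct
eRF1, chr3L:20348255-20348354, plus strand: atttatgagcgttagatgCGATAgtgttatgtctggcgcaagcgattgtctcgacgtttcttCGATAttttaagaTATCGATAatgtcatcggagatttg
eIF4A, chr2L:5981664-5981763, plus strand: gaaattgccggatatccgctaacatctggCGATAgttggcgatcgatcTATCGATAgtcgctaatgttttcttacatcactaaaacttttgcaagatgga
eIF3a, chr3R:4433896-4433964, minus strand: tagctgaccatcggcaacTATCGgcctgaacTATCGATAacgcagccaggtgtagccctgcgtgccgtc
eIF4E1, chr3L:9402461-9402560, minus strand: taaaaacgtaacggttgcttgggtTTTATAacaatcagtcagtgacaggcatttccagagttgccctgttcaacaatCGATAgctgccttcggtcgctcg
eIF4EHP, chr3R:24108961-24109060, minus strand: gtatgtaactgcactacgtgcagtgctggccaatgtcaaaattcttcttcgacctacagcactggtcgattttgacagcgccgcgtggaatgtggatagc
Of the genes that were not bound, the upstream stretches of eEF1delta and eIF2alpha held a DRE, while those of the paralogs eEF1alpha2 and eIF4E7 did not.
eEF1delta, chr2L:10232407-10232506, plus strand: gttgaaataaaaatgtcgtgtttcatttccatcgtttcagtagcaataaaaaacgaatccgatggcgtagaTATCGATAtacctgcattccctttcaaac
eIF2alpha, chrX:16446994-16447093, minus strand: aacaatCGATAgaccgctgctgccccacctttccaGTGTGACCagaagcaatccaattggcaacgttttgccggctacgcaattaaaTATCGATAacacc
eEF1alpha2, chr3R:31739560-31739659, plus strand: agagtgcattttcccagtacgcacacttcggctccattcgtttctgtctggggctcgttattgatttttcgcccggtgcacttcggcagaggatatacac
eIF4E7, chrX:1162390-1162489, minus strand: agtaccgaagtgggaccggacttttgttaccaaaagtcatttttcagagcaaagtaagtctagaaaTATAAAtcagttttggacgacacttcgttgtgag
In this upstream window of 100 bp the DRE was found in 11 of the 26 bound genes (42.3%) and in 2 of the 28 others (7.14%). Of all protein-coding genes 6.03% held it there, and of all bound ones 10.1%. A DRE was therefore present upstream of some unbound genes and absent upstream of most bound ones. The bound genes with a DRE at the summit did not stand out by rank. Their median optimal rank was 2084, and that of the 17 others 1567.

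The 4 bound elongation factor genes carried strong peaks, and these were the same 4 in each replicate. A rank is the place of a peak in its list by the score of the authors' peak caller, rank 1 being the strongest. eEF1gamma, a subunit of the exchange complex that reloads eEF1A with GTP, had its summit at chr3R:29220174, 2 bp downstream of a TSS. Its optimal rank was 134, and replicates 1, 2 and 3 placed it at 202, 104 and 155. eEF2, the GTPase that moves the ribosome along the mRNA, had its summit at chr2L:21682121, 5 bp upstream of a TSS, with optimal rank 427 and ranks 1773, 203 and 323. Replicate 1 thus placed this peak lower than the others did, though well within its strongest 4417. eEF1alpha1, the main carrier of aminoacyl-tRNA, had its summit at chr2R:11892056, with optimal rank 435 and ranks 1022, 280 and 408. eEF5, the fly homologue of eIF5A, a hypusine-carrying factor that helps peptide bond formation, had its summit at chr2R:24057774, with optimal rank 591 and ranks 886, 683 and 496. In all of these genes but eEF5 replicate 2 held the best rank of the 3, and in all 4 replicate 1 the worst. All 4 lay in the part of the optimal list with rank 1104 or better, its strongest 1 in 4,, where 26.6% of bound protein-coding genes lay. The median optimal rank was 431 for these 4 genes, 2084 for the 21 bound initiation factor genes and 2113 for all bound protein-coding genes. The ranks of initiation factors ran from 50 to 4312, so both classes overlapped.

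The other 4 elongation factor genes had weak or no peaks. eEF1alpha2, the paralog of eEF1alpha1, ranked at best 7209, 9205 and 9356 within 500 bp of a TSS in the relaxed lists of replicates 1, 2 and 3. eEF1beta, a further subunit of the exchange complex, ranked 9708 and 14425 in replicates 1 and 2 and had no summit in replicate 3. eEF1delta, also of that complex, ranked 24341 in replicate 1 and had none in the others. The complex of eEF1beta, eEF1delta and eEF1gamma was thus bound at 1 of its 3 genes (33.3%, beside 25.0% of protein-coding genes). eEFSec, the elongation factor for selenocysteine, ranked 29678, 12674 and 17646, all outside the strongest 4417.

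**Figure D3:**
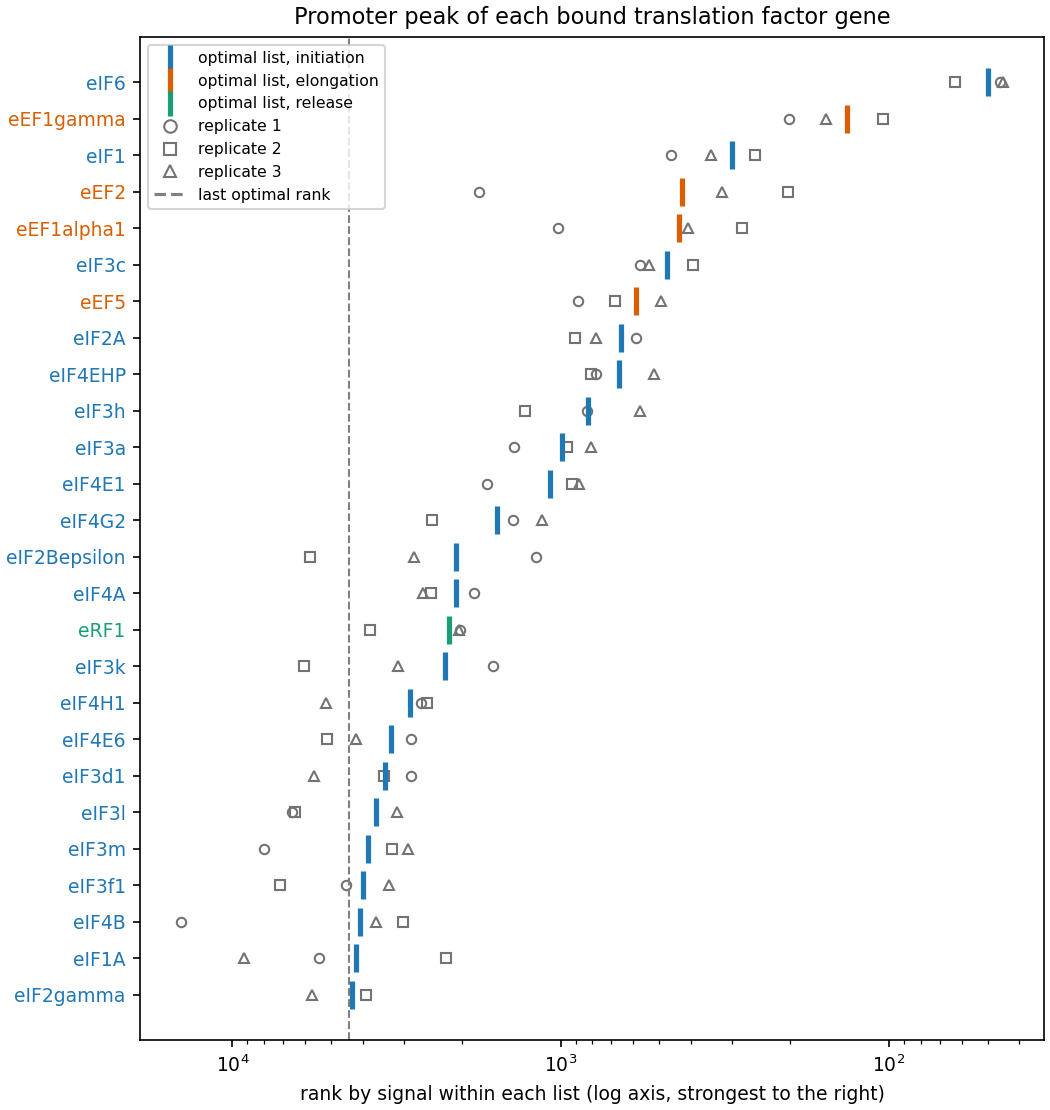
Rank by signal of the promoter peak of each of the 26 bound genes, on a log axis with the strongest peaks to the right. Coloured bars give the optimal list by class and open symbols the nearest peak within 150 bp in each replicate list, with none for eIF2gamma in replicate 1; the elongation factors lie between 134 and 591, and the replicates lie far apart for eEF2 (1773, 203 and 323) as well as for the weak eIF4B (14297, 3028 and 3652).

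Initiation factor genes held both the strongest and the weakest peaks of the group. The strongest stood at eIF6, which binds the large ribosomal subunit and keeps it from joining the small one too early. Its summit at chr2R:23850391 had optimal rank 50 and ranks 46, 63 and 45 in the replicates. It lay 90 bp upstream of the TSS of eIF6 and 61 bp from that of the antisense RNA gene asRNA:CR45928, so it cannot be given to either alone. eIF1, which guards start codon selection, came next among initiation factors, with optimal rank 300 and ranks 460, 256 and 347. Its summit at chr3L:3223022 lay 319 bp upstream of eIF1 but 62 bp from the TSS of RpL28, a ribosomal protein gene on the other strand. eIF2A, described in mammals as an alternative carrier of initiator tRNA, had optimal rank 656 and ranks 591, 907 and 778 in the replicates. All of these stood at rank 1104 or better in every list.

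The larger complexes were bound at some of their subunit genes and not at others. The shares were 50% for eIF3, 33.3% for eIF2 and 20% for eIF2B, beside 25.0% of protein-coding genes. With 3 and 5 genes, the shares of eIF2 and eIF2B cannot be told apart from that of protein-coding genes. The share of eIF3, whose 16 genes include the paralogs eIF3d2, eIF3f2 and eIF3g2, varied between replicates. In replicates 1, 2 and 3, 5, 5 and 8 of the 16 were bound, or 37.5% ± 10.8 (SD, n = 3), beside 24.6% ± 0.588 of protein-coding genes. eIF3 is the scaffold that holds the small subunit, mRNA and other factors together, and 8 of its 16 genes were bound, with a median optimal rank of 2837. eIF3c had optimal rank 474 and ranks 572, 394 and 537. eIF3h had optimal rank 827 and ranks 829, 1287 and 571, and eIF3a optimal rank 988 and ranks 1384, 958 and 809. These 3 of the 16 were the eIF3 genes bound in every replicate, a share close to the 17.4% of protein-coding genes bound in every replicate. The other 5 were weaker, with optimal ranks of 2244 for eIF3k, 3430 for eIF3d1, 3639 for eIF3l, 3873 for eIF3m and 4010 for eIF3f1. Each of these 5 fell outside the strongest 4417 in at least 1 replicate. The genes eIF3b, eIF3e, eIF3g1, eIF3i and eIF3j and the paralogs eIF3d2, eIF3f2 and eIF3g2 were not bound.

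eIF2 carries the initiator tRNA, and 1 of its 3 subunit genes was bound. This was eIF2gamma, the GTP-binding subunit, with optimal rank 4312, close to the end of the list. At its peak replicate 2 ranked 3927 and replicate 3 5708, and replicate 1 had no summit within 150 bp. The summit lay 48 bp from the TSS of eIF2gamma and 46 bp from that of Set. eIF2B recycles eIF2 by exchanging its GDP, and eIF2Bepsilon alone of its 5 genes was bound, with optimal rank 2083 and ranks 1190, 5807 and 2798. Its summit lay 4 bp from a TSS of Ocrl and 111 bp from that of eIF2Bepsilon. Both eIF2 and eIF2B were therefore bound at 1 gene each, at a summit slightly or clearly nearer to a neighbour.

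Of the genes that bring mRNA to the ribosome, eIF4E1 had optimal rank 1080 and ranks 1678, 921 and 882. eIF4A had optimal rank 2084 and ranks 1834, 2486 and 2622. Both were bound in all replicates. eIF4G1, the scaffold that joins them, was not bound and ranked at best 5736, 16039 and 6931 in the relaxed lists. Of the helicase cofactors, eIF4H1 had optimal rank 2867 and ranks 2661, 2558 and 5179. eIF4B had optimal rank 4089 and ranks 14297, 3028 and 3652, so that its call rests on replicates 2 and 3. eIF1A, a partner of eIF1 in scanning, had optimal rank 4196 and ranks 5433, 2237 and 9205. Its summit lay 133 bp from its own TSS and 86 bp from that of Vps39. eIF5, the activator of eIF2 GTP hydrolysis, and eIF5B, which joins the subunits, were not bound.

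The release factors differed between lists. eRF1, which reads the stop codon, was bound at chr3L:20348325, 30 bp upstream of a TSS, with optimal rank 2191 and ranks 2021, 3819 and 2035. It was bound in all 3 replicates. eRF3, the GTPase that works with it, was not bound in the optimal list and ranked at best 7201, 8182 and 2973, so it was among the strongest 4417 peaks in replicate 3 alone. With 2 genes, no share of release factors can be set against the other classes.

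Main genes were bound more often than their paralogs in the optimal list. In 7 families with a main gene and at least 1 paralog (eIF3d, eIF3f, eIF3g, eIF4E, eIF4G, eIF4H and eEF1A, sorted by hand), 5 of 7 main genes (71.4%) and 3 of 12 paralogs (25.0%) were bound, beside 25.0% of protein-coding genes. In the replicates the shares were 52.4% ± 8.25 for main genes and 22.2% ± 4.81 for paralogs (SD, n = 3), beside 24.6% ± 0.588 of protein-coding genes. The lowest replicate for main genes, 42.9%, was above the highest for paralogs, 25.0%. The difference rests in part on weak peaks. Among optimal peaks matched in all 3 replicates, 2 of 7 main genes (28.6%) and 2 of 12 paralogs (16.7%) were bound, beside 16.9% of protein-coding genes. Without replicate 1 or 2 the count for main genes was 2 as well, beside 18.7% and 18.9% of protein-coding genes. The 2 main genes were eEF1alpha1 and eIF4E1.

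The relaxed lists, which reach far below the optimal list, showed the paralogs more plainly. No summit lay within 500 bp of a TSS in any replicate list for 7 of 12 paralogs (58.3%), namely eIF3d2, eIF3f2, eIF3g2, eIF4E3, eIF4E5, eIF4E7 and eIF4H2. Of all protein-coding genes 32.6% had no such summit, and of the 42 translation factor genes that are no paralog 2, eIF2Balpha and eIF2Bbeta. All 7 main genes had one in at least 1 replicate. For the main gene eIF3g1 this was a summit of rank 25363 in replicate 1 alone. The paralog eIF4E4 had a summit of rank 27569 in replicate 3 alone. The nearest optimal summit lay a median of 37875 bp from the TSS of unbound paralogs and 3750 bp from that of the 19 other unbound genes.

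The 3 bound paralogs were eIF4EHP, eIF4G2 and eIF4E6. eIF4EHP, which represses translation of caudal mRNA together with Bicoid in the early embryo, had optimal rank 662 and ranks 781, 809 and 520. eIF4G2, which is needed for meiosis in the male germ line, had optimal rank 1567 and ranks 1400, 2465 and 1139. Its summit lay 65 bp from a TSS of eIF4G2 and equally far from a TSS of CG33111, so it cannot be given to either alone. In the eIF4G family the paralog eIF4G2 was thus bound in every replicate and the main gene eIF4G1 in none. In the eIF4E family eIF4EHP and the main gene eIF4E1 were both bound in every replicate, and eIF4EHP ranked higher in each list. eIF4E6 had optimal rank 3275 and ranks 2853, 5164 and 4187. Its summit lay 32 bp from its own TSS and 30 bp from that of CG1951, transcribed the other way with a gap of 62 bp.

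**Figure D4:**
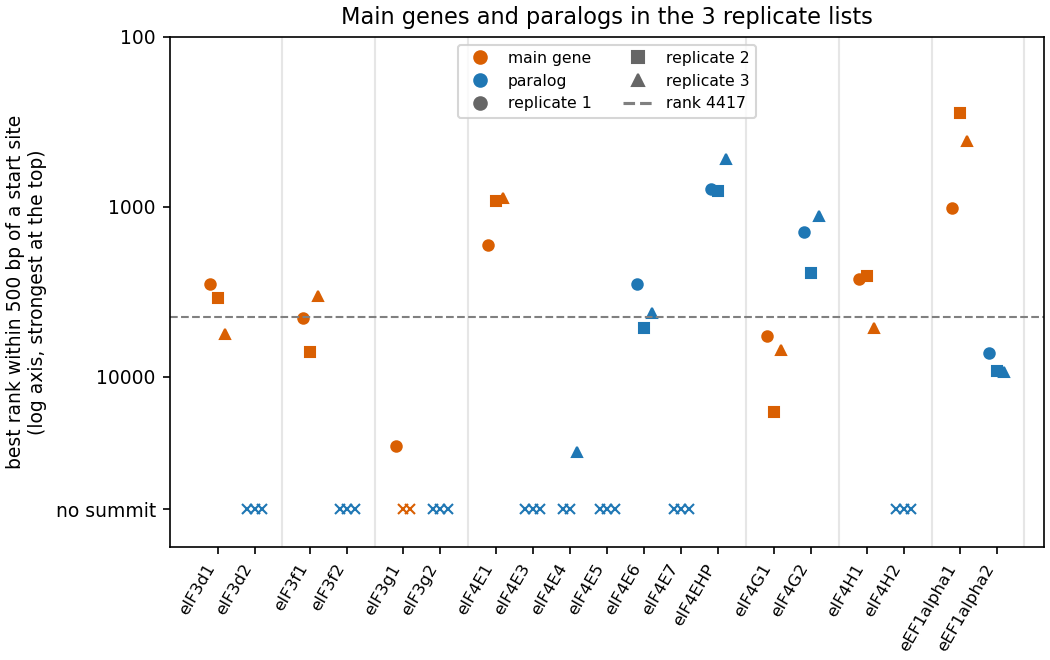
Best rank of a summit within 500 bp of a start site in each of the 3 replicate lists, on a log axis with the strongest at the top, for main genes (orange) and paralogs (blue) of 7 families; crosses mark lists with no such summit and the dashed line rank 4417. Crosses in all 3 lists are seen for 7 paralogs and no main gene, and eIF4G2 lies above eIF4G1.

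Several of the 28 unbound genes carried weaker peaks. In the pooled relaxed list 11 of them (39.3%) had a summit within 500 bp among the first 8834 entries, beside 17.1% of the 10463 unbound protein-coding genes, and 1 of the 11 was a paralog. A summit in all 3 replicate lists was present for 12 of the 28 (42.9%, beside 23.7%), and over all 54 genes for 38 (70.4%, beside 42.5% of protein-coding genes). Closest to the end of the optimal list, at pooled ranks 4477 and 4490, stood eIF3j and eIF2Bgamma. The last bound genes just inside it were eIF1A at 4196 and eIF2gamma at 4312. In 8 unbound genes a single replicate placed a summit among its strongest 4417. These were eIF2Bdelta (rank 1284) and eIF2alpha (3670) in replicate 1, eIF5B (3284), eIF2beta (3601) and eIF2Bgamma (4296) in replicate 2, and eIF2D (2454), eRF3 (2973) and eIF3j (4290) in replicate 3. For eIF2Bdelta replicate 2 and the pooled list held no summit within 500 bp. The like count among unbound protein-coding genes was not made, so the 8 cannot be set against it. Bound in no replicate were 20 of the 54 genes, beside 9478 of the 13945 protein-coding genes.

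Summits lay close to the TSS and mostly upstream of it. In 23 of the 26 bound genes the summit was upstream (88.5%, beside 85.9% of bound protein-coding genes), and the median position was -48.5 bp, beside -74 bp. Within 100 bp of the TSS lay 22 summits (84.6%, beside 58.0%). The range ran from 382 bp upstream, at eIF3l, to 19 bp downstream, at eIF3h. The genes nearest to the 500 bp limit on its inner side were eIF3l and eIF1, at 382 and 319 bp. On its outer side stood eIF2Bbeta, another eIF2B subunit gene, and eIF2Bdelta, at 680 and 718 bp. The peak nearest to eIF2Bbeta was the one at Ugalt, of optimal rank 2, 39 bp from the TSS of Ugalt. Of the 26 summits, 16 lay in intergenic sequence, 6 in an annotated 5′ UTR, 3 in an intron and 1 in a non-coding exon. The like counts for all bound protein-coding genes were not made.

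**Figure D5:**
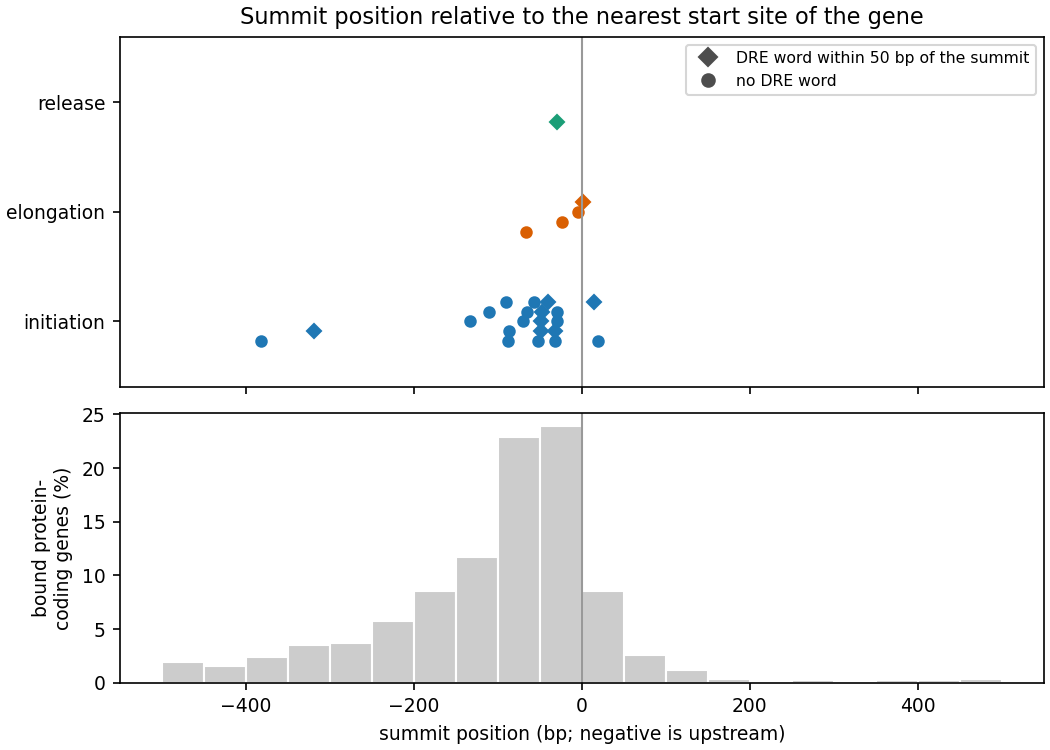
Position of the summit relative to the nearest start site of each bound gene in bp, negative values being upstream, by class and with diamonds for summits with a DRE within 50 bp (top), and the same position for all 3482 bound protein-coding genes in bins of 50 bp as percent (bottom). Most of the 26 genes lie within 100 bp of the start site, and eIF1 and eIF3l lie more than 300 bp upstream.

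Promoters shared with a neighbour were common. A gene was called divergent when its TSS lay within 500 bp of that of a protein-coding gene transcribed away from it on the other strand, and 22 of the 54 genes were (40.7%, beside 27.4% of protein-coding genes). Of these 22, 13 were bound (59.1%, beside 47.0% of divergent protein-coding genes). Of the 32 others, 13 were bound as well (40.6%, beside 16.7%). The partner was bound at all 13 bound divergent genes and at none of the 9 unbound ones, which a summit between both TSSs largely fixes. At 8 of the 26 bound genes another gene had the TSS nearest to the summit, and 7 of these 8 were divergent. The gene's own TSS was nearest, ties counted, at 18 of the 26, beside 2572 of the 3482 bound protein-coding genes. When each summit was given to its nearest TSS alone, 18 of the 54 genes were bound (33.3%, beside 18.6% of protein-coding genes). The 4 elongation factors kept their calls under this rule, while eIF1, eIF1A, eIF2Bepsilon, eIF2gamma, eIF3a, eIF3l, eIF4E6 and eIF6 lost theirs.

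Genes with several TSSs have more chances to be called bound. Of the 22 translation factor genes with more than 1 TSS, 15 were bound (68.2%, beside 39.1% of such protein-coding genes). Of the 32 with a single TSS, 11 were (34.4%, beside 19.9%). The share was thus above that of protein-coding genes in both groups. Main genes had a mean of 2 TSSs and paralogs of 1.17, so main genes had more chances of a call. With a single TSS, 2 of 4 main genes and 2 of 10 paralogs were bound. With several, 3 of 3 main genes and 1 of 2 paralogs were.

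A pyrimidine initiator, TCTTT or CCTTT on the sense strand with its C within 5 bp of a TSS, is a mark of ribosomal protein promoters. It was found at 6 of the 54 genes (11.1%, beside 3.31% of protein-coding genes). Of the 26 bound genes 5 had it (19.2%, beside 5% of bound protein-coding genes), namely eEF2, eEF5, eIF3f1, eIF3m and eIF4A, and of the 28 others eIF3i alone did. None of the 12 paralogs and 1 of the 7 main genes, eIF3f1, had it.

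Genes that act beside these factors without carrying their prefixes were bound in 14 of 30 cases (46.7%, beside 25.0% of protein-coding genes). Of the cytosolic ones 12 of 21 were bound (57.1%) and of the mitochondrial factors 2 of 9 (22.2%), namely mIF2 and mRF1. The strongest stood at larp, for a protein that binds mRNAs of the translation machinery, with a best optimal rank of 23 within 500 bp and ranks 24, 42 and 16 in the replicates. Dph4, of the pathway that makes the diphthamide of eEF2, had best optimal rank 109 and ranks 120, 115 and 117. The RNA helicase gene bel, the eIF4E-binding protein gene Thor and the poly(A)-binding protein gene pAbp had best optimal ranks of 1120, 1462 and 1463. The ribosome rescue gene pelo, the reinitiation factor gene DENR and the eIF4E regulator genes cup and 4E-T were not bound. Gcn2, for an eIF2alpha kinase, was not bound in the optimal list either, though its best ranks of 1766, 3646 and 1588 placed it among the strongest 4417 peaks of every replicate.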

How the data were processed

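ChIP-seq peak lists of 3 biological replicates of whole embryos were used in dm6 coordinates. Per the deposited file lists, the relaxed list of each replicate was made from its alignments and a control, and the optimal list from the replicate lists and a pooled list by the irreproducible discovery rate. At each bound translation factor gene the best rank within 500 bp was the same in the optimal and the pooled list. A place in the optimal list therefore need not mean that the peak was found in each replicate. The aligner, peak caller and thresholds were not given in the sources used here, and the control and the dm3 lists were not analysed here. The deposited score of each peak is the caller's own and differs in scale between lists, so peaks were ranked by it within a list. The deposited −log10 q, at most 4.02, was not used. No depth or read count was known, so no counting interval is given.

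The annotation was Ensembl BDGP6.54, and no peak on the arms X, 2L, 2R, 3L, 3R and 4 ended beyond the arm's length. Summits were compared with TSSs in Python 3.11.15 with numpy 2.4.6 and plotted with matplotlib 3.10.9, and the calls were tested on simulated data. Nearest summits give the optimal ranks and positions. Replicate ranks at a bound gene are those of the summit nearest to the optimal one, within 150 bp. For unbound genes, and for genes without the prefixes, ranks are the best within 500 bp. A replicate was left out by counting optimal peaks matched in both others.

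No test was run. There was a single group, and genes that share pooled peaks are not replicates, so shares are given beside those of all genes, and each SD covers the spread between replicates. The members, classes, families, lists and words were chosen with earlier results of these data known. The pyrimidine initiator and most of the sequences shown were chosen after the values were seen. The rule for named genes took all elongation and release factors, all paralog families, the 12 bound genes of best rank, genes near the distance limit and unbound genes called in a replicate. Further genes were named to complete a complex. The symbols eIF5A and eIF4AIII of the role list and DHPS, mEFG2 and Dph6 were not matched and are not analysed here.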

Additional observations from a re-analysis of the deposited data

How the results depend on the processing

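The share of bound translation factor genes relative to that of protein-coding genes was 1.65 to 2.17 times under 11 alternatives. Bound elongation factor genes numbered 4 in each of them and bound paralogs 2 or 3. Counts of bound genes as a whole fell from 26 to 15 when optimal peaks matched in all 3 replicates alone were used, to 16 in the 50% of peaks of higher signal and to 17 to 18 when a replicate was left out. For initiation factors, 21 at first, these counts were 10 (22.7%), 11 (25%) and 12 to 13 (27.3% to 29.5%). With each summit given to its nearest TSS the count was 13 (29.5%). The shares of protein-coding genes were 16.9%, 13.7%, 18.7% to 19% and 18.6% in the same order. For main genes, 5 at first, the first 3 of these counts were 2 (28.6%), 2 (28.6%) and 2 to 4 (28.6% to 57.1%). In the strongest peaks of replicate 3 the count of main genes was 3 (42.9%, beside 23.9% of protein-coding genes). In that replicate 2 release factor genes were bound, against 1. Matching, the higher signal and leaving out a replicate use fewer peaks by construction. Distances of 250 and 1000 bp gave 24 and 28 bound genes (44.4% and 51.9%, beside 21.4% and 27.9% of protein-coding genes). In every alternative 12 genes kept their call: eEF1alpha1, eEF1gamma, eEF2, eEF5, eIF2A, eIF3c, eIF3h, eIF4A, eIF4E1, eIF4EHP, eIF4G2 and eRF1. With each summit given to its nearest TSS, eIF4G2 kept its call in a tie with CG33111. With 100 bp on each side of the summit the DRE was found at 12 of 26 peaks (46.2%, beside 12.3% of promoter peaks). No paired analysis was possible because there was a single group. Without depth, a gene that was not bound cannot be told apart from one bound below detection.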
